A study of Mus musculus with 18 samples.

Results

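This is an account of how mouse embryonic fibroblasts (MEF) that received a CMV-miR-29b plasmid differed from fibroblasts that received an empty vector when both were treated with TGF-β. The members were chosen by their labels alone: 3 libraries labelled plasmid CMV-miR29b with TGF-β and 3 labelled plasmid Control with TGF-β, which is 6 of the 18 libraries of the series. Of the 55450 genes in the deposited table, 21161 had enough counts to be tested. MEF, obtained from American Type Culture Collection, were transfected transiently with Lipofectamine 3000, received TGF-β 6 h after transfection and stayed in it for 24 h. The control plasmid was empty pcDNA3. According to the methods of the study, the CMV-miR-29b plasmid used the pcDNA3 backbone and carried the human miR-29b-1 sequence and EGFP behind the CMV promoter, and mRFP1 behind an SV40 promoter as a marker of transfection. miR-29b and the other inserted parts cannot be told apart here. The remaining libraries held the same plasmids without TGF-β, and a Col1a1-miR29b plasmid with and without TGF-β. All 6 groups were the same cells, and no label gives the share of cells that took up a plasmid. Replicates are lettered c, d and e, except that 1 library of each Col1a1-miR29b group carries a letter in the table that no title has and was used as an unlettered replicate of its group, and p-values measure the spread between these libraries.

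miR-29 is a small family of microRNAs that share the bases at positions 2 to 8, the seed, through which a microRNA pairs with matching letters in the 3′ UTR of messenger RNAs and lowers their stability or translation. Many transcripts of collagens and other matrix proteins carry such matches, and miR-29 is known as a brake on matrix genes in fibroblasts. TGF-β acts through its receptors and the Smad factors to raise the expression of collagens, matrix modifying enzymes and contractile genes.

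The mature sequences show what the plasmid was built to supply and which letters its relatives share. They are from RefSeq (GRCm38.p6), 5′ to 3′, with the seed in capitals. miR-29b-3p is encoded by Mir29b-1 (chr6:31063025-31063047, minus strand) and in the same letters by Mir29b-2 on chromosome 1. All 3 family members have the same seed.
miR-29b-3p: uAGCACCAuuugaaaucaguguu
miR-29a-3p: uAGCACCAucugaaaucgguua
miR-29c-3p: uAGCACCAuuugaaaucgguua

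The sites below are matches in the 3′ UTRs of genes on which the results turn. Capitals mark the match to the seed, TGGTGCT, followed by an A where there is one: with the A the match is called an 8-mer, without it a 7-mer. Coordinates (GRCm38) are those of the 7 bases. A match is a description of letters and not a measured site of binding.
Col3a1 (chr1:45348982-45348988, plus strand): ttcaaaatgtctcaaTGGTGCTA
Col5a2 (chr1:45374966-45374972, minus strand): cttttcttttaatgaTGGTGCTA
Col1a1 (chr11:94952538-94952544, plus strand): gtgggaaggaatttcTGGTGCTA
Col5a1 (chr2:28038034-28038040, plus strand): tacacttgtctcttgTGGTGCTA
Col5a3 (chr9:20770504-20770510, minus strand): ctccaccaggcctttTGGTGCTA
Fbn1 (chr2:125301174-125301180, minus strand): tttctgttgtctgttTGGTGCTA
Fbn1 (chr2:125300924-125300930, minus strand): tgtgagggtttgtaaTGGTGCTt
Dnmt3a (chr12:3911405-3911411, plus strand): cccaggggaggtagcTGGTGCTA
Col1a2 and Plpp6, which are described below, had no such match in the 3′ UTR of the transcript used, and Tet3 had no 3′ UTR annotated there.

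The 6 libraries held between 65898017 and 78402913 counts, and libraries of 1 group differed by a chi-square per gene of 40.4 to 64.7, where sampling noise alone gives about 1. One control library stood apart. The log counts of control library d correlated more closely with the CMV-miR-29b libraries (0.979 to 0.980) than with the other control libraries (0.973 and 0.975). The calls, the lists and the main collagens are therefore given also without it. The library was picked after this was seen. Leaving out the control most like the plasmid libraries favours a wider difference, so these values are no separate support. Of 12 fibroblast markers, 11 had counts (Lum was at 0), and their summed level was 4378 to 5122 CPM in the control and 3624 to 3979 CPM in the CMV-miR-29b libraries. CPM are counts scaled so that each library has the same total after TMM normalisation. The fibroblast sum is made largely of Col1a1 and Col1a2. Markers of epithelial, endothelial, leukocyte, muscle, adipocyte and neural cells summed to at most 60.0 CPM per list in any of the 6 libraries, and most of the neural sum was Tubb3.

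The gene carried by the plasmid was read first as a check of the labels. Mir29b-1 (ENSMUSG00000065604, chr6:31063023-31063093, minus strand) had 0 counts in every control library. In the CMV-miR-29b libraries it had 214, 203 and 293 counts, a level of 3.35 ± 0.595 CPM (SD, n = 3). The groups did not overlap. Against a floor of 3 counts per library this was at least 82.5-fold higher, and the adjusted p of the edgeR quasi-likelihood test was 0.0015. The fitted log2 difference of 10.97 depends on the small count added to a group at 0 and is no bound. The exact permutation p of 3 libraries against 3 was 0.1, which is the smallest that this design can give. The libraries were made from poly(A) RNA, so these counts are of longer RNA that spans the hairpin and not of the mature microRNA. Mir29a, Mir29b-2 and Mir29c had between 0 and 2 counts in each of the 6 libraries. Gm27019, a noncoding gene that shares 2 bases with Mir29b-1 on the same strand, had 39, 49 and 48 counts with CMV-miR-29b and 6, 1 and 8 with the empty vector. Without TGF-β the plasmid gave 110, 115 and 309 counts of Mir29b-1 against 0 in each control.

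Besides Mir29b-1, 1 gene passed an adjusted p of 0.05. Plpp6 (ENSMUSG00000040105, chr19:28963953-28966811, plus strand) encodes a phosphatase of polyisoprenoid diphosphates. Its level was 15.7, 17.1 and 18.1 CPM in the control libraries and 30.2, 30.6 and 32.3 CPM in the CMV-miR-29b libraries. Every library with the plasmid was above every control. Plpp6 rose by 82.7%, a log2 difference of 0.87 (SE 0.095, adjusted p = 0.0015 by edgeR). Without TGF-β the log2 difference was 0.04, and the 3 CMV-miR-29b libraries, at 17.1, 19.1 and 21.1 CPM, overlapped the 3 controls at 17.8, 19.4 and 18.7 CPM. The difference between those differences had an unadjusted p of 1.51e-05 and an adjusted p of 0.113 by edgeR. Plpp6 lies whole within 4430402I18Rik on the opposite strand, which was measured at no more than 0.436 CPM in any of the 6 libraries. It was entered in the list of miR-29 targets outside the matrix from background knowledge, and it moved upwards.

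**Figure D1:**
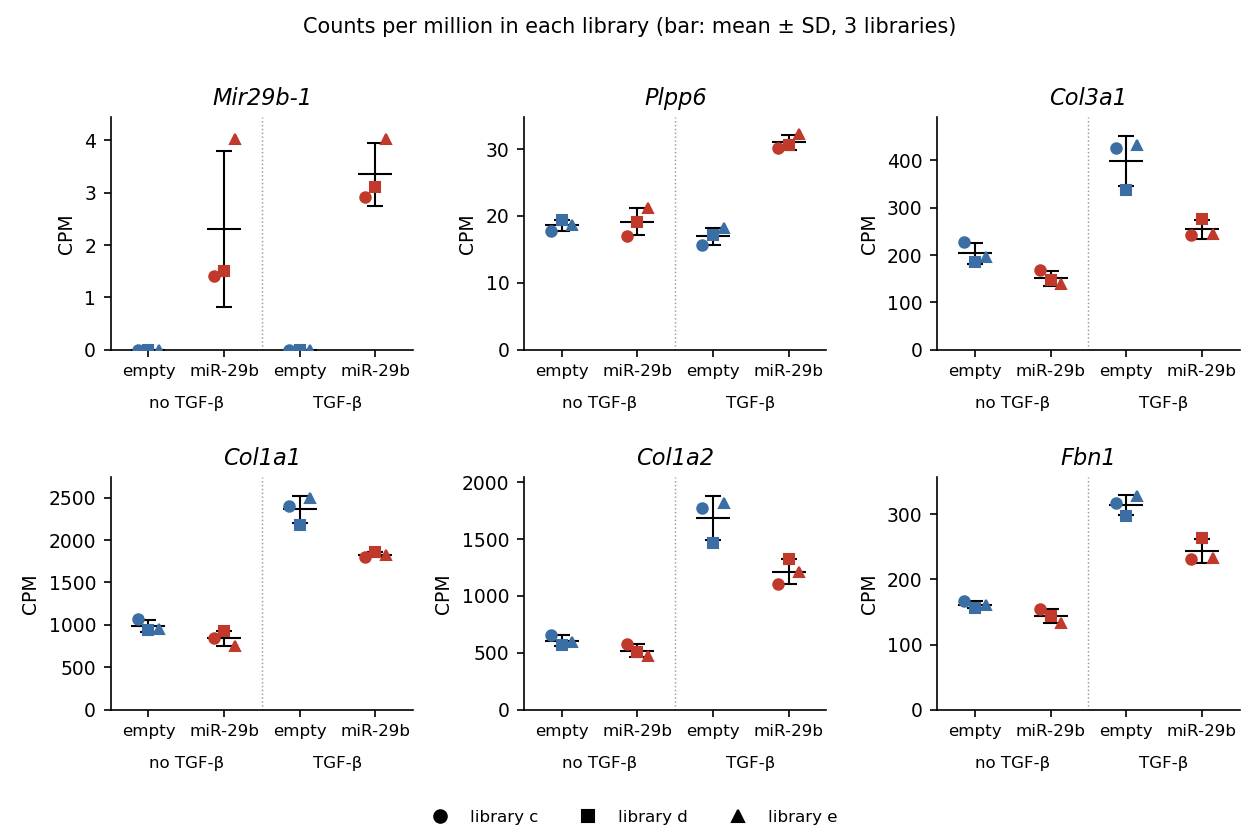
Level in CPM (vertical axes, each from 0) of 6 genes in each of 3 libraries (c circles, d squares, e triangles) with the empty vector (blue) or CMV-miR-29b (red), without TGF-β at the left and with TGF-β at the right of each panel. Black bars are the mean and SD. Mir29b-1 is at 0 in all control libraries, Plpp6 is higher in the libraries with both plasmid and TGF-β than in the other 9, and the control library d of the TGF-β group is the lowest control for Col3a1, Col1a1, Col1a2 and Fbn1.

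The 2 genes were 0.00945% of the 21161 tested. An unadjusted p under 0.05 by edgeR was found for 12% of genes, 1337 lower (6.32%) and 1194 higher (5.64%) with the plasmid. DESeq2, the tool named in the methods of the study, called 151 genes lower (0.913%) and 143 higher (0.865%) of 16533. The calls lower by DESeq2 were shallow, with a median log2 difference of -0.30, and 8 of them were at least 2-fold. Those higher had a median of 0.83, and 48 were at least 2-fold. They also differed in kind. Of the lower genes 144 (95.4%) were protein-coding, against 49 (34.3%) of the higher, of which 76 (53.1%) were processed pseudogenes. Among all genes tested 68.9% were protein-coding and 10.7% processed pseudogenes. Without control library d edgeR called 118 genes lower (0.537%) and 42 higher (0.191%) of 21955. DESeq2 and the fit without that library shared 85 genes, 28.9% of the first list and 53.1% of the second.

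**Figure D2:**
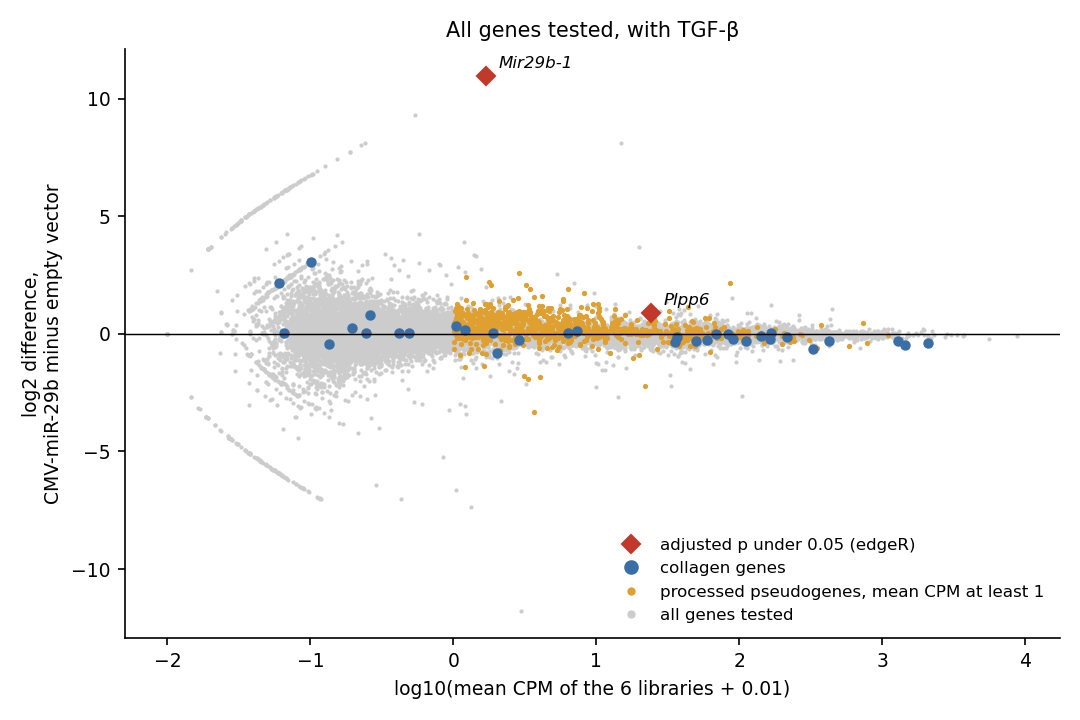
Log2 difference between CMV-miR-29b and empty vector with TGF-β (vertical axis, edgeR) against the mean level of the 6 libraries (horizontal axis, log10 of CPM + 0.01) for 21161 genes. Mir29b-1 and Plpp6 (red) passed an adjusted p of 0.05. Of the 33 collagen genes tested (blue), 18 lie below 0, and of the 24 with a mean of at least 1 CPM, 17 do. The processed pseudogenes with a mean of at least 1 CPM (orange) lie mostly above 0.

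Well expressed collagen genes were mostly lower with CMV-miR-29b, Col3a1 by 36.3% and Col1a1 by 22.6%, although none passed an adjusted p of 0.05 by edgeR. Of 44 listed genes 33 were tested, and 10 of them were lower and 0 higher at an unadjusted p under 0.05. That was 30.3% of the list, beside 6.32% lower and 5.64% higher over all genes. Of protein-coding genes with a mean level of at least 1 CPM, 9.59% were lower. At that level 17.2% were lower in the longest of 5 classes of transcript length (4612 to 123179 bases), and 41.7% of the collagens. DESeq2 called 8 lower and 0 higher. The median log2 difference of the 33 was -0.091, beside -0.003 over all genes tested, and 18 (54.5%) were below 0, beside 50.5% of all genes. In 10 of the 33 the groups did not overlap and the plasmid libraries were lower, and in 2 they were higher, beside 8.01% and 7.86% of all genes. Among the 24 with a mean level of at least 1 CPM the median was -0.198, with 17 below 0. Without control library d the medians were -0.1003 and -0.227, and 6 of the collagens then passed an adjusted p of 0.05. Leaving out control library c gave a median of -0.164 for the 33. Corrected for GC content and transcript length, the medians were -0.035 and -0.144. The per-library medians of the 24 genes, each on the log2 scale around its own control mean, were -0.017, -0.062 and 0.059 in the controls. They were -0.220, -0.209 and -0.139 in the CMV-miR-29b libraries, so the groups did not overlap by this measure. Medians of the CPM themselves did overlap, at 73.5, 74.4 and 79.9 in the controls and 74.3, 74.2 and 76.0 with the plasmid. The values are relative to all RNA in the culture, in which fewer cells of a type and less RNA per cell cannot be told apart.

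The fibrillar collagens form the cross-striated fibres of connective tissue. Type III collagen is the homotrimer encoded by Col3a1 (ENSMUSG00000026043, chr1:45311538-45349706, plus strand), which had the largest difference of the fibrillar collagens. Its level was 426, 338 and 433 CPM with the empty vector and 242, 277 and 244 CPM with CMV-miR-29b. The lowest control, library d, was still above the highest plasmid library. The means were 399 ± 52.9 and 254 ± 19.7 CPM (SD, n = 3), 36.3% lower with the plasmid, a log2 difference of -0.65 (SE 0.109, adjusted p = 0.0559 by edgeR, 3.34e-05 by DESeq2). Without control library d the log2 difference was -0.76 with an adjusted p of 0.0152 by edgeR.

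Type I collagen, the main fibre protein, is built of chains from Col1a1 and Col1a2. Col1a1 (ENSMUSG00000001506, chr11:94936224-94953042, plus strand) stood at 2406, 2183 and 2497 CPM in the controls and at 1800, 1858 and 1828 CPM with the plasmid. All 3 plasmid libraries were below all controls, by 22.6% on average (log2 -0.37, SE 0.079, adjusted p = 0.124 by edgeR and 0.00537 by DESeq2). Col1a2 (ENSMUSG00000029661, chr6:4504814-4541544, plus strand) stood at 1770, 1468 and 1821 CPM in the controls and at 1102, 1326 and 1210 CPM with the plasmid. It was 28.1% lower (log2 -0.48, SE 0.095, adjusted p = 0.108 by edgeR and 0.00168 by DESeq2), and it has no seed match in the 3′ UTR scanned. Without control library d the adjusted p by edgeR was 0.0424 for Col1a1 and 0.0282 for Col1a2.

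Type V collagen is incorporated into type I fibres and limits their width. Col5a2 (ENSMUSG00000026042, chr1:45374321-45503282, minus strand) had the smallest p of the collagens. Its controls were at 1448, 1364 and 1442 CPM and its plasmid libraries at 1144, 1191 and 1150 CPM, 18.1% lower without overlap (log2 -0.29, SE 0.046, adjusted p = 0.0559 by edgeR and 4.71e-05 by DESeq2). Col5a1 was at 474, 441 and 497 CPM in the controls and at 364, 404 and 377 CPM with the plasmid. Col5a3 was at 124, 117 and 128 CPM against 91.1, 103 and 104 CPM. Both were lower in every plasmid library than in every control, by 18.9% and 19.2%, with log2 differences of -0.30 and -0.31 (adjusted p = 0.108 and 0.093 by edgeR). With control library d left out the adjusted p by edgeR was 0.0266 for Col5a2 and 0.0328 for Col5a1 and Col5a3. The 3 chains differed by like amounts, between -0.29 and -0.31 on the log2 scale, with standard errors of 0.046 to 0.061.

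Type IV collagen forms the sheet of basement membranes. Col4a5 was at 65.5, 64.8 and 63.3 CPM in the controls and at 56.2, 55.5 and 49.9 CPM with CMV-miR-29b, 16.5% lower (log2 -0.26, SE 0.054, adjusted p = 0.121 by edgeR and 0.00421 by DESeq2). Col4a2 was 12.9% lower (log2 -0.20, adjusted p = 0.180 by edgeR and 0.0274 by DESeq2), with no overlap between 91.3 to 99.7 and 80.7 to 88.3 CPM. Col7a1, the anchoring fibril collagen, had a log2 difference of -0.30 and an adjusted p of 0.351 by edgeR. Other well expressed collagens showed no such difference. Col6a2 had a log2 difference of 0.01, Col8a1 of -0.00 and Col16a1 of 0.02. Col6a3 had the most negative value of the 24 expressed collagens, a log2 difference of -0.82 with an SE of 0.485 at 0.913 to 3.25 CPM, and is named here after its values were seen.

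**Figure D3:**
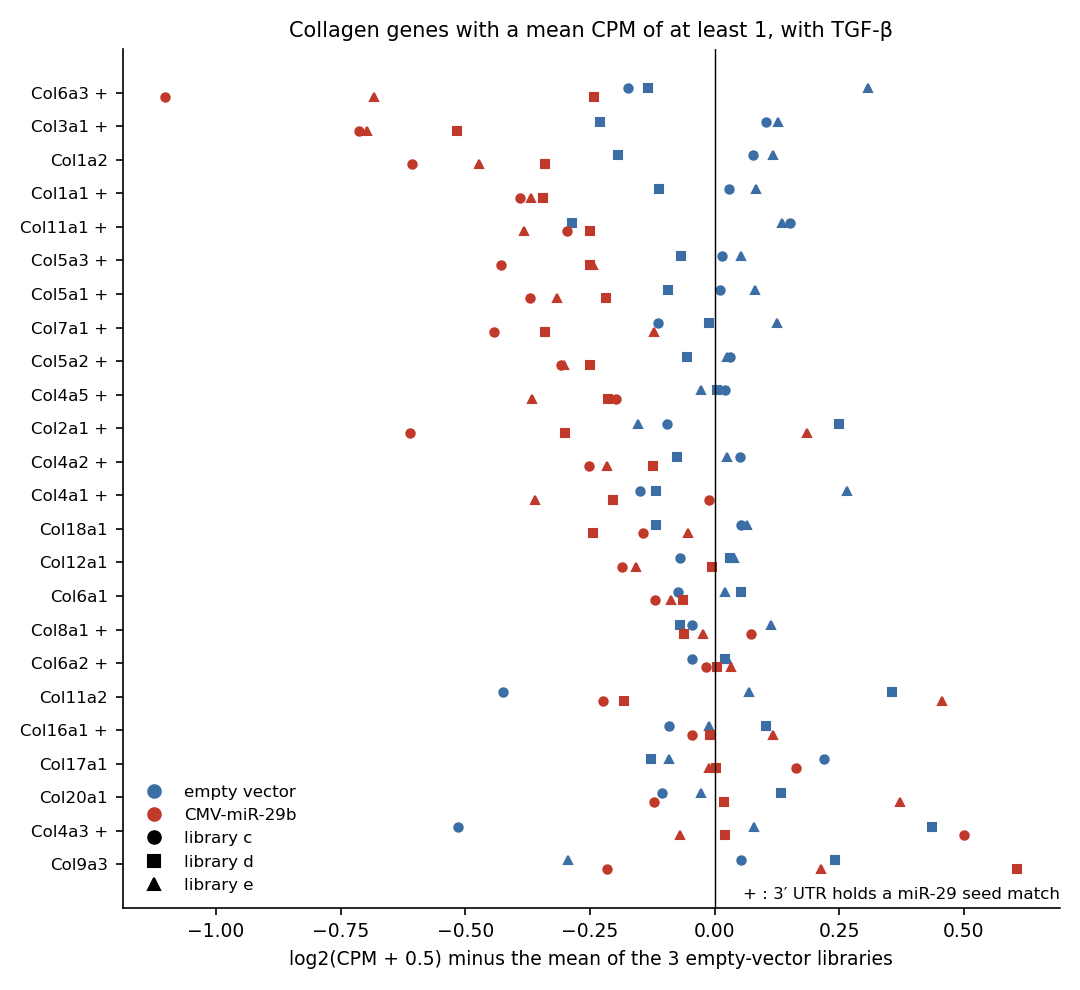
The 24 collagen genes with a mean level of at least 1 CPM, ordered by their edgeR log2 difference. The horizontal axis is log2(CPM + 0.5) of each library minus the mean of the 3 empty-vector libraries, with TGF-β throughout. Symbols are libraries c, d and e, blue for the empty vector and red for CMV-miR-29b. A plus after a name marks a seed match in the 3′ UTR. From Col3a1 to Col4a5 most red points lie left of all blue points, and from Col6a1 down the colours mix.

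Of the 24 expressed collagens, 16 had a match of either kind and a median log2 difference of -0.274, with 13 below 0, 9 lower at an unadjusted p under 0.05 by edgeR and 7 by DESeq2. The other 8, among them Col18a1 and Col11a2, whose transcripts were not scanned, had a median of -0.037, with 4 below 0 and 1, Col1a2, lower at an unadjusted p under 0.05. Of all scanned genes with a mean of at least 1 CPM, 16.4% of those with a match and 8.48% of those without were lower at that threshold. DESeq2 called 0.913% of its 16533 genes lower. Without TGF-β the medians of both collagen groups were -0.198 and -0.144. There 9 and 3 were lower at an unadjusted p under 0.05 by edgeR, beside 2.64% of all genes. No test was made between these lists. A match did not go with a lower level in each gene: Col6a2 and Col8a1 each have an 8-mer. Per length, as FPKM (fragments per kilobase of transcript, scaled to depth), Col1a1 was the highest collagen in the controls at 314, followed by Col5a2 at 129, Col1a2 at 118, Col5a1 at 48.4 and Col3a1 at 35.5. The means with CMV-miR-29b had the same order, at 249, 108, 87.2, 40.2 and 23.2 FPKM.

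The same control libraries are the end point of the TGF-β response and the reference for the Col1a1-miR29b plasmid, so the values that follow share samples and are set side by side only. In empty-vector cells TGF-β went with log2 differences of 0.97 for Col3a1, 1.26 for Col1a1, 1.48 for Col1a2, 0.78 for Col5a2, 0.95 for Col5a1 and 1.26 for Col5a3. The differences that went with CMV-miR-29b in the presence of TGF-β were -0.65, -0.37, -0.48, -0.29, -0.30 and -0.31 for these genes. With the Col1a1-miR29b plasmid and TGF-β they were -0.87, -0.46, -0.63, -0.28, -0.37 and -0.57. In counts of Mir29b-1 the Col1a1-miR29b libraries with TGF-β had 4, 2 and 6, against 214, 203 and 293 with CMV-miR-29b.

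Fibrillin, the scaffold of elastic microfibrils, was the noncollagen matrix gene with the smallest p. Fbn1 was at 317, 297 and 329 CPM in the controls and at 231, 264 and 234 CPM with CMV-miR-29b. The groups did not overlap, and the mean was 22.7% lower (log2 -0.37, SE 0.064, adjusted p = 0.0603 by edgeR and 0.00021 by DESeq2, and 0.0282 by edgeR without control library d). The other elastic fibre genes did not share this. Over 15 tested the median was -0.039, and without control library d it was 0.008. At an unadjusted p under 0.05 by edgeR 2 (13.3%) were lower and 0 higher, beside 6.32% and 5.64% of all genes. Fbln2, a fibulin, had a log2 difference of 0.06, and Ltbp3, which holds latent TGF-β in the matrix, of -0.00.

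Genes that fold, trim and cross-link collagen did not follow the collagens. Of 31 tested, 1 (3.23%) was lower and 3 (9.68%) were higher at an unadjusted p under 0.05 by edgeR. Over all genes these shares were 6.32% and 5.64%. The median was -0.025, or 0.009 without plasmid library c. P4hb, the protein disulfide isomerase that is also a subunit of prolyl 4-hydroxylase, was at 2933, 2872 and 2819 CPM in the controls and at 2801, 2834 and 2842 CPM with the plasmid, overlapping. Sparc, a collagen binding glycoprotein, had a log2 difference of -0.13 (SE 0.043, adjusted p = 0.263 by edgeR). Loxl2, a lysyl oxidase with 2 8-mers in its 3′ UTR, had a log2 difference of -0.07 with an SE of 0.056. Lox, whose 3′ UTR has 3 7-mers, was at 24.8, 23.7 and 25.5 CPM in the controls and at 31.8, 29.9 and 27.6 CPM with the plasmid (log2 0.27, SE 0.090, adjusted p = 0.275 by edgeR). Its libraries with the plasmid were all above the controls, and it is named after its values were seen.

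Other matrix groups had medians closer to 0. Adhesive and matricellular glycoproteins (22 tested) had a median of -0.056. At an unadjusted p under 0.05 by edgeR 3 (13.6%) were lower and 0 higher, beside 6.32% and 5.64% of all genes. Fn1, fibronectin, was at 1899, 2050 and 2083 CPM in the controls and at 1890, 2075 and 1851 CPM with the plasmid, an overlap with a log2 difference of -0.05. Proteoglycans (22 tested) had a median of -0.020, and of -0.141 without control library d. Bgn, biglycan, had a log2 difference of -0.03. Laminins and basement membrane genes (13 tested) had a median of -0.051, and Lamc1, the common laminin chain, had the most counts after Hspg2 and a log2 difference of -0.27 with an adjusted p of 0.335 by edgeR.

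Among matrix proteases and their inhibitors 4 of 30 (13.3%) were lower and 3 (10%) higher at an unadjusted p under 0.05 by edgeR. Over all genes these shares were 6.32% and 5.64%. Adam19, a membrane metalloprotease with 2 7-mers, was at 9.64, 9.27 and 9.89 CPM in the controls and at 7.41, 6.56 and 6.19 CPM with the plasmid (log2 -0.51, SE 0.108, adjusted p = 0.121 by edgeR and 0.00168 by DESeq2). Mmp14, the membrane collagenase, had a log2 difference of -0.24 (adjusted p = 0.188 by edgeR and 0.048 by DESeq2). Integrins, the receptors that bind these matrix proteins, had a median of -0.114 over 18 tested. Of these 3 (16.7%) were lower and 1 (5.56%) higher at an unadjusted p under 0.05 by edgeR. Itgb1, the shared beta subunit, had a log2 difference of 0.02, and Itga5, its partner in the fibronectin receptor, of -0.15 (adjusted p = 0.211 by edgeR).

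miR-29 is also known to pair with transcripts outside the matrix, among them DNA methyltransferases and TET enzymes, which set and remove DNA methylation. The share of such targets lower at an unadjusted p under 0.05 by edgeR was 28.9%, beside 30.3% of the collagens and 6.32% of all genes. Of protein-coding genes with a mean of at least 1 CPM it was 9.59%. The list was chosen with earlier results of these data known, so its share is a description and no independent support. Of 38 tested, 31 were below 0 with a median log2 difference of -0.123, and 11 were lower and 1 higher at an unadjusted p under 0.05 by edgeR. The 31 with a seed match in the transcript used had a median of -0.125 and the other 7, among them Tet3, whose transcript was not scanned, -0.077. Tet3 was at 125, 127 and 130 CPM in the controls and at 103, 108 and 107 CPM with the plasmid, 16.5% lower without overlap (log2 -0.26, SE 0.045, adjusted p = 0.0619 by edgeR). Dnmt3a was at 87.7, 76.7 and 81.3 CPM against 67.4, 68.6 and 66.2 CPM, 17.7% lower without overlap (log2 -0.28, SE 0.059, adjusted p = 0.121 by edgeR), and its 3′ UTR has 2 8-mers and 3 7-mers. Nav1, a microtubule-binding neuron navigator with 4 matches, was at 53.6, 48.0 and 85.6 CPM against 37.6, 42.4 and 38.0 CPM (log2 -0.66, adjusted p = 0.164 by edgeR), with control library e far above the other controls. Pdgfa, a growth factor for fibroblasts, had a log2 difference of -0.26. The most abundant members showed little: Vegfa had a log2 difference of -0.08, Cdc42 of -0.03 and Nasp of 0.03.

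Over all protein-coding genes the lower values went with seed matches. A 3′ UTR could be scanned in 14218 genes tested, and 11496 of these had a mean of at least 1 CPM. Of the 11496, 344 had an 8-mer, 1287 a 7-mer and 9865 no match. The median log2 difference was -0.078 with an 8-mer, -0.044 with a 7-mer and -0.017 with none, and 73.0%, 63.1% and 54.9% of these genes were below 0. Lower values at an unadjusted p under 0.05 by edgeR were found in 19.5%, 15.5% and 8.48% of these classes, and higher values in 1.45%, 2.25% and 4.74%. With 2 or more matches (237 genes) the median was -0.075, and with 3 or more (53 genes) it was -0.099, while the correction for GC content and transcript length gave -0.018 and -0.013. Leaving out control library d gave class medians of -0.081, -0.053 and -0.024. Genes are not independent replicates, and no test was made between the classes.

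The medians were also read within classes of 3′ UTR length, and the part of length was not tested. In UTRs of over 2000 bases the medians were -0.075 with an 8-mer, -0.051 with a 7-mer and -0.019 with none. In those of up to 500 bases they were -0.073 (23 genes), -0.019 and -0.008. Without the minimum of 1 CPM these short UTRs had medians of -0.036 (27 genes), -0.005 and -0.005, so the 7-mer and no-match classes did not differ. Corrected for GC content and transcript length, the medians of the 3 classes were -0.038, -0.008 and -0.005, so the 7-mer and no-match classes then lay close together. In the libraries without TGF-β, which share no sample with those above, the medians were -0.050, -0.026 and 0.000.

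**Figure D4:**
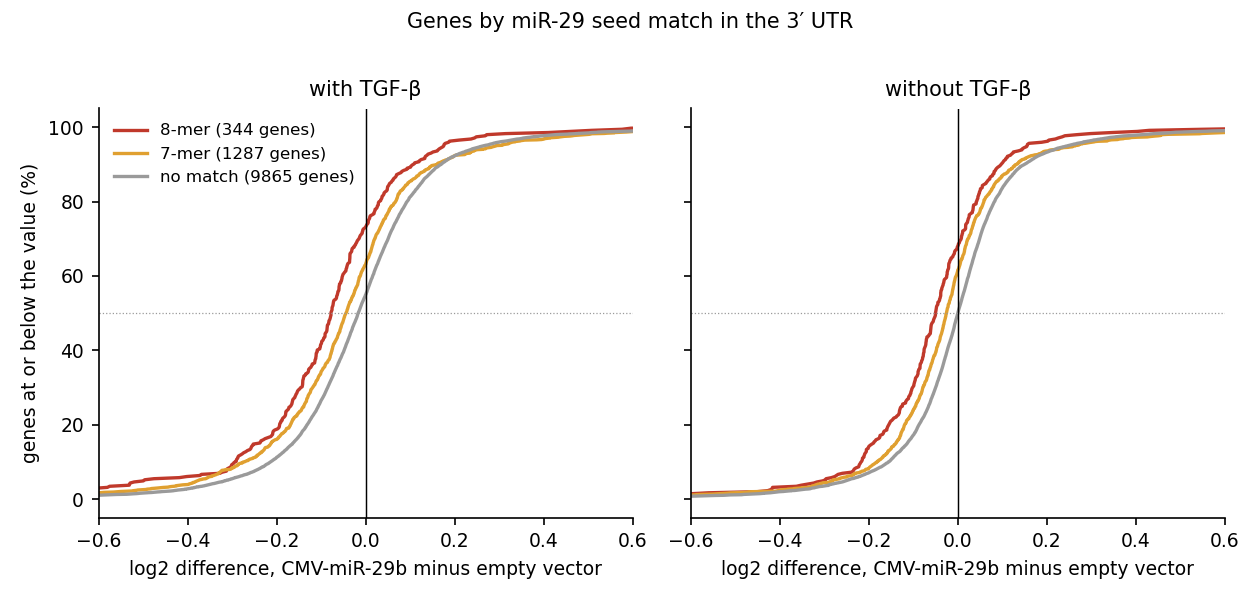
Cumulative share of genes (vertical axis, percent) at or below a log2 difference between CMV-miR-29b and empty vector (horizontal axis) for genes whose 3′ UTR has an 8-mer (red, 344 genes), a 7-mer (orange, 1287) or no seed match (grey, 9865), with TGF-β at the left and without at the right. Values beyond the horizontal limits are not drawn. The red curve lies left of the grey one in both panels, and it crosses 0 at 73.0% with TGF-β, against 54.9% for the grey.

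Of the 53 genes with at least 3 matches, 39 (73.6%) were below 0, beside 56.4% of the 11496 scanned genes at this level. At an unadjusted p under 0.05 by edgeR 15 (28.3%) were lower and 1 (1.89%) higher. Over the 11496 genes these shares were 9.60% and 4.37%. Among the 53, Col5a3, Col5a1, Col4a5 and Dnmt3a had the smallest p. Atad2b, an ATPase with 3 8-mers, was at 54.7, 57.1 and 59.9 CPM in the controls and at 46.0, 50.2 and 44.3 CPM with the plasmid (log2 -0.29, SE 0.064, adjusted p = 0.135 by edgeR and 0.00568 by DESeq2). The groups did not overlap.

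TGF-β signalling genes were more often below 0 than above it. Of 44 tested, 32 (72.7%) were below 0, with a median of -0.092. Below 0 were 50.5% of all genes, and 56.3% of protein-coding genes with a mean of at least 1 CPM. At an unadjusted p under 0.05 by edgeR 7 (15.9%) were lower and 1 (2.27%) higher. Over all genes these shares were 6.32% and 5.64%, and over those protein-coding genes 9.59% and 4.35%. Inhba, the activin subunit, was at 55.9, 44.9 and 67.1 CPM in the controls and at 40.6, 40.1 and 38.3 CPM with the plasmid (log2 -0.50, SE 0.127, adjusted p = 0.180 by edgeR and 0.0225 by DESeq2), without overlap. Grem1, a secreted antagonist of BMP, was at 68.1, 40.9 and 68.6 CPM against 34.3, 42.4 and 36.6 CPM, and control library d lay within the range of the plasmid libraries. The ligand Tgfb1 had a log2 difference of -0.11, the receptor Tgfbr1 of 0.07 and the signal carrier Smad3 of -0.11, each with overlapping groups. The ubiquitin ligases Smurf1 and Smurf2, which mark receptors and Smads for breakdown, had log2 differences of -0.12 and -0.09.

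Contractile and myofibroblast genes, which mark fibroblasts activated by TGF-β, showed little difference. Of 26 tested, 3 (11.5%) were lower and 1 (3.85%) higher at an unadjusted p under 0.05 by edgeR, with a median of -0.019. Over all genes these shares were 6.32% and 5.64%. Acta2, smooth muscle actin, was at 10.1, 12.0 and 9.80 CPM in the controls and at 11.1, 9.73 and 10.7 CPM with the plasmid, fully overlapping, a low level for a gene known as a myofibroblast marker. Flna, the actin cross-linker, had a log2 difference of -0.07 and the nonmuscle myosin gene Myh9 of -0.13 (adjusted p = 0.397 by edgeR). Cald1, caldesmon, had control libraries at 898, 879 and 483 CPM, and its log2 difference of 0.21 (SE 0.206) rests on control library e.

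Next to the collagens, a set of unrelated genes had the smallest p values among those lower. Ilkap, a phosphatase that acts on integrin-linked kinase, was at 52.9, 50.2 and 52.6 CPM in the controls and at 41.7, 42.9 and 42.8 CPM with the plasmid (log2 -0.29, SE 0.048, adjusted p = 0.0559 by edgeR). Without TGF-β its log2 difference was 0.01. Ypel2, with 2 7-mers, had a log2 difference of -0.42 (adjusted p = 0.0873), Cbx3, a heterochromatin protein, of -0.50 (0.091) and Med13l, a Mediator subunit, of -0.26 (0.107), all by edgeR. Each was lower in every plasmid library than in every control. Arl15, a small GTPase, was at 20.8, 13.8 and 16.4 CPM in the controls and at 4.32, 6.68 and 6.59 CPM with the plasmid (log2 -1.54, SE 0.286, adjusted p = 0.091 by edgeR).

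Among genes with higher values, 5 of the 10 next to Plpp6 by p (mean of at least 1 CPM) were processed pseudogenes, whose reads may belong to the near-identical parent gene. Gm5643 was at 1.92, 1.69 and 1.91 CPM in the controls and at 4.29, 6.61 and 5.58 CPM with the plasmid (log2 1.58, SE 0.254, adjusted p = 0.0559 by edgeR). Gm12183, Gm7278, Gm13007 and Gm8623 had log2 differences of 0.50, 1.28, 0.98 and 1.12, each without overlap. Gm7278 lies inside Rgl1 on the same strand. Of the protein-coding genes, Cycs, the cytochrome c of the respiratory chain, was at 349, 337 and 330 CPM against 415, 399 and 401 CPM (log2 0.26, SE 0.050, adjusted p = 0.0998 by edgeR). Hspb1, a small heat shock protein, was at 13.3, 12.8 and 13.0 CPM against 19.5, 18.5 and 15.6 CPM (log2 0.46, adjusted p = 0.103 by edgeR). Ldhb, the heart-type lactate dehydrogenase subunit, had a log2 difference of 0.81 at no more than 3.32 CPM. Gm3488 rested on plasmid libraries c and d, at 3.31 and 2.91 CPM, with library e at 0.385 CPM.

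Glycolysis genes (21 tested) had a median of -0.078, and 7 were lower and 1 higher at an unadjusted p under 0.05 by edgeR. That was 33.3% lower, beside 6.32% over all genes and 9.59% of protein-coding genes with a mean of at least 1 CPM. Eno1, enolase, was at 1584, 1506 and 1567 CPM in the controls and at 1347, 1368 and 1441 CPM with the plasmid (log2 -0.16, SE 0.041, adjusted p = 0.174 by edgeR and 0.0334 by DESeq2). Pgk1, phosphoglycerate kinase, had a log2 difference of -0.17 and Slc2a1, the glucose transporter, of -0.20, both without overlap. Pkm and Ldha, the most abundant members, had log2 differences of -0.04 and -0.03. Without TGF-β the median of the list was -0.009. Fatty acid oxidation genes (24 tested) had a median of 0.026 and cholesterol and fatty acid synthesis genes (31 tested) 0.000. Cpt1b, the muscle form of carnitine palmitoyltransferase, was at 2.61, 2.65 and 1.18 CPM in the controls and at 0.395, 0.138 and 0.220 CPM with the plasmid. It was lower in every plasmid library by 88.3% on average (log2 -3.08, SE 0.994, adjusted p = 0.263 by edgeR and 0.0378 by DESeq2). Cpt1b shares 9459 bases with Gm44502 on the same strand, which ranged from 0 to 19.3 CPM in the control libraries.

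Interferon and antigen presentation genes, which can respond to DNA brought into a cell, had medians near 0. Of 42 interferon-stimulated genes 0 were lower and 4 (9.52%) higher at an unadjusted p under 0.05 by edgeR, with a median of 0.007. Over all genes 6.32% were lower and 5.64% higher. Xaf1 had a log2 difference of 0.16 (adjusted p = 0.158 by edgeR and 0.0233 by DESeq2) and Gbp2 of 0.25 (0.159 and 0.0184). Cxcl10, the abundant interferon-induced chemokine, was at 335, 356 and 346 CPM in the controls and at 366, 330 and 349 CPM with the plasmid, overlapping. Without TGF-β the median of the 42 was 0.148. MHC class I presentation genes (13 tested) had a median of -0.002 and chemokines and cytokines (20 tested) 0.055. Csf1, the macrophage growth factor, was at 228 and 217 CPM in plasmid libraries c and d and at 75.7 CPM in library e.

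Remaining lists are given by counts, to be read beside 6.32% lower and 5.64% higher over all genes at the same threshold. At an unadjusted p under 0.05 by edgeR, 6 of 37 cell cycle genes were lower and 1 higher (median -0.034), 1 of 22 p53 targets was lower and 0 were higher (-0.006), 3 of 27 genes of ER protein processing were lower and 0 higher (-0.052), 0 of 28 lysosome genes were lower and 3 higher (-0.006), and 8 of 77 ribosomal protein genes were lower and 2 higher (-0.029). Of 12 genes of microRNA processing 2 were lower and 1 higher (-0.047), with a log2 difference of 0.01 for Drosha and -0.10 for Ago2. Immediate-early factors (19 tested) had 5 lower and 2 higher and a median of -0.003. The 13 listed mitochondrially encoded genes had a median of -0.184, but their groups overlapped in each gene. The median of the control libraries ran from -0.215 in library d to 0.203 in library e around the control mean. Outside this list, the mitochondrial gene mt-Th was at 2.35 to 4.51 CPM in the controls and at 1.42 to 1.76 CPM with the plasmid. Its groups did not overlap (log2 -1.2015, adjusted p = 0.0998 by edgeR and 0.00132 by DESeq2).

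**Figure D5:**
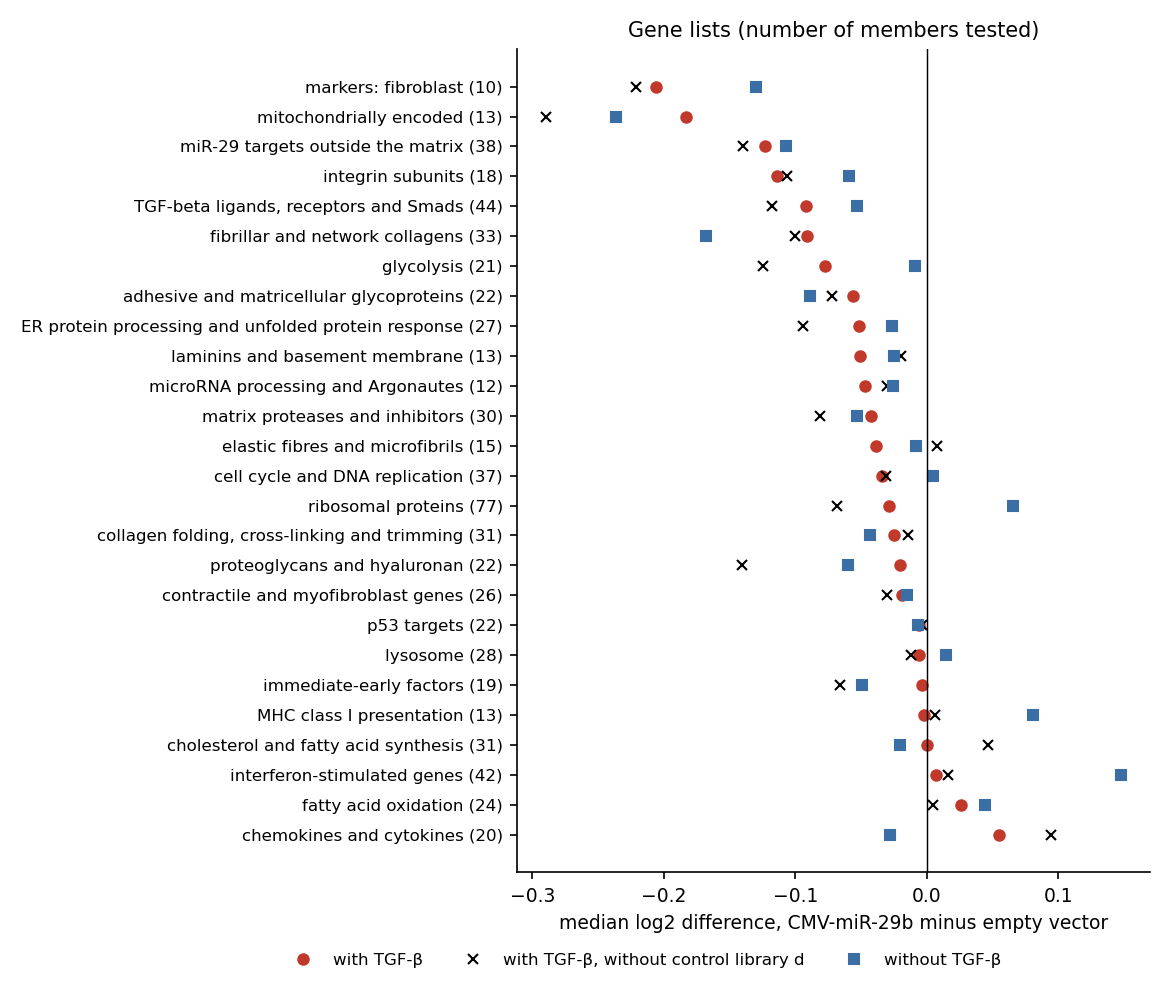
Median log2 difference between CMV-miR-29b and empty vector (horizontal axis) for each gene list, with the number of members tested in parentheses. Red circles are the 6 libraries with TGF-β, crosses the same without control library d, and blue squares the libraries without TGF-β. The collagens, the miR-29 targets outside the matrix and the fibroblast markers, which include Col1a1 and Col1a2, are below 0 in all 3 sets. So are many other lists, among them the integrins, the TGF-β signalling genes and the mitochondrially encoded genes. The interferon-stimulated genes reach 0.148 without TGF-β and are at 0.007 with it.

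The last comparison asked whether the difference between the plasmids depended on TGF-β. Without TGF-β edgeR called 1 gene (0.00473%), Mir29b-1, and 1156 genes had an unadjusted p under 0.05 (5.46%). The test of the difference between both settings called 0 genes by edgeR, with 1129 at an unadjusted p under 0.05 (5.34%), and 19 by DESeq2. Genes lower with TGF-β were mostly lower without it: of 151 genes lower by DESeq2, 128 (84.8%) were below 0 in the libraries without TGF-β, beside 49% of all genes. Of 143 higher, 23 (16.1%) were below 0.

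Collagens were lower without TGF-β too: 12 of 33 were lower and 0 higher at an unadjusted p under 0.05 by edgeR, beside 2.64% of all genes lower. Over the 24 expressed collagens the median was -0.198 with TGF-β and -0.186 without, and 16 were below 0 in both. Without TGF-β Col3a1 had a log2 difference of -0.43, Col1a1 of -0.24, Col1a2 of -0.22, Col5a2 of -0.17 and Fbn1 of -0.17. The difference between settings had unadjusted p values by edgeR of 0.166, 0.249, 0.0774, 0.101 and 0.0364 for these genes. Of the miR-29 targets outside the matrix, 29 of 38 were below 0 in both.

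Gga3 and Arl15 ran in opposite directions in the 2 settings. Gga3, an adaptor of vesicle transport, was at 51.9, 51.5 and 51.8 CPM in the controls with TGF-β and at 33.1, 32.5 and 36.5 CPM with the plasmid. Without TGF-β the order was turned, at 34.0, 34.4 and 35.1 CPM in the controls and at 56.8, 58.7 and 53.3 CPM with the plasmid. Its difference between settings was -1.31 on the log2 scale (unadjusted p = 1.6e-05, adjusted p = 0.113 by edgeR). For Arl15 the log2 difference was 0.63 without TGF-β, where control library e at 14.9 CPM overlapped the plasmid libraries, and the difference between settings was -2.16 (unadjusted p = 7.05e-05, adjusted p = 0.178 by edgeR). Gm35248 and Anxa13 also had small p values for this test, but were below 1 CPM in all 6 libraries with TGF-β.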

How the data were processed

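Poly(A) RNA of 18 MEF cultures was sequenced as stranded libraries. The deposited table holds raw counts and FPKM per gene and library. The submitters' processing notes name cutadapt, FastQC, HISAT2 and StringTie, without versions, and the build mm9, while coordinates of 52506 of 55450 genes equal those of GENCODE M21 (GRCm38), which was used here for transcripts and 3′ UTRs. How reads became counts, and whether by strand, is not given in the sources used here. Counts, as deposited by the authors, were tested with edgeR 4.0.16 (quasi-likelihood, TMM, filterByExpr) in R 4.3.3, in 1 model of 18 libraries and 6 groups, with Benjamini-Hochberg adjustment over 21161 genes. Alternatives used DESeq2 1.42.0, and limma 3.58.1 on log2(FPKM + 1) and log2(FPKM + 0.1) of the deposited FPKM. 2 per-sample FPKM columns that match no label were not used. Named genes were Mir29b-1, Cpt1b, the genes with the smallest p in each direction, with an 8-mer or for the difference between settings, and the called or most abundant members of each list. Members and lists were chosen with earlier results of these data known. On simulated counts the edgeR fit recovered 4% of 50 genes changed 1.25-fold, 36% at 1.5-fold, 84% at 2-fold and 92% at 4-fold, over 20585 genes. The changed genes were drawn from those with a mean of at least 1 CPM, and 5 unchanged genes were called. Counts of 0 allow up to 3 per library, for counting error only. Some genes are not reported here.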

Additional observations from a re-analysis of the deposited data

How the results depend on the processing

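The number of genes past an adjusted p of 0.05 with TGF-β depended on the processing. It was 2 by edgeR, 294 by DESeq2, 178 by DESeq2 on the 6 libraries alone (chosen after seeing the data), 4 with any gene with a count, 1 with at least 10 counts in every library, 7 with both groups compared alone, 1 with counts divided by 4, 11 corrected for GC content and transcript length and 2 with the same correction and the replicate block. Leaving out 1 library in turn gave 3 to 160, with 160 without control library d and 7 without control library c. Without TGF-β, 1 gene became 37 by DESeq2, 0 with at least 10 counts in every library and 0 with counts divided by 4. The difference between settings went from 0 to 19 by DESeq2. Mir29b-1 had a log2 difference of 8.97 and an adjusted p of 0.0513 by edgeR with counts divided by 4. It had no value under the filter of 10 counts in every library. The division was tried because 33.8% to 35.8% of the low nonzero counts in the 6 libraries were multiples of 4. Plpp6 passed under all 20 settings, with log2 differences of 0.79 to 0.92 and adjusted p up to 0.0416. For the genes named by their p, 482 comparisons stayed on their side of the threshold and 76 passed it where the edgeR fit did not. Of the medians of lists and classes, 564 moved by less than the spread between libraries and 119 by more. With the replicate block the counts stayed 2 with TGF-β, 1 without and 0 for the difference. Libraries of the same letter did not deviate together (correlations of -0.0555, -0.123 and 0.0854 over 10360 genes).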

Other observations

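Processed pseudogenes, intronless copies of messenger RNAs, were higher with CMV-miR-29b. Over 951 with a mean of at least 1 CPM the median log2 difference was 0.199, beside -0.021 over 11691 protein-coding genes. Of the 951, 239 (25.1%) were higher and 22 (2.31%) lower at an unadjusted p under 0.05 by edgeR. Of the 11691 protein-coding genes 4.35% were higher and 9.59% lower. Without control library d the median was 0.170, corrected for GC content and transcript length 0.096, and without TGF-β 0.103. Short transcripts moved alike: over genes in 5 classes of transcript length the medians were 0.052 in the shortest class (57 to 1374 bases) and -0.054 in the longest (4612 to 123179 bases). The part of length and of mapping between near-identical copies in this was not tested.

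The values of 4 heat shock genes, chosen after they were seen, are given here, and none passed an adjusted p of 0.05 by edgeR. Hspa1a was at 0.253, 0.193 and 0.343 CPM in the controls and at 2.44, 1.84 and 1.39 CPM with the plasmid (log2 2.84, adjusted p = 0.141 by edgeR and 0.00294 by DESeq2). Hspa1b was at 11.7, 9.44 and 10.2 CPM against 15.6, 16.1 and 15.6 CPM (log2 0.59, adjusted p = 0.124 by edgeR). The cytosolic chaperones Hsph1 and Dnajb1 had log2 differences of 0.25 and 0.14. Of 68 heat shock and DnaJ genes, 10 were higher and 2 lower at an unadjusted p under 0.05 by edgeR (14.7% higher, beside 5.64% over all genes), 33 were below 0 and the median was 0.001. Without TGF-β Hspa1b was at 7.97, 8.06 and 9.56 CPM in the controls and at 17.2, 14.5 and 13.9 CPM with the plasmid.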
